A study of Williopsis jadinii with 8 samples.

Results

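The xylose-fermenting yeast strain TMS174 was set against the wild type (WT) on the same sugar and at the same time. The comparison takes 5 of the 8 one-colour arrays of the series: 2 of TMS174 and 3 of WT strain NBRC0988, both sampled after 24 h on xylose and chosen by strain, medium and time in the sample labels. The other 3 arrays, of WT sampled after 10.5 h on glucose, enter the estimate of the spread and serve as a further level beside the strains. Candida utilis (listed as Williopsis jadinii) is an industrial fodder yeast. The labels describe TMS174 as a strain that ferments xylose and give no genotype for it, so the changes made to it are not stated here and could not be checked on the arrays. Precultures grew for 3 days on 20 g/L glucose. The 50 ml xylose cultures, inoculated to a starting OD600 of 0.1, held 50 g/L xylose, 20 g/L peptone and 10 g/L yeast extract, and were stirred gently at 30 °C under semi-aerobic conditions. The series description calls the replicates independent experiments. The 6 WT arrays shared a slide that held no TMS174 array, and both TMS174 arrays were on a different one: in every value below, strain and slide cannot be told apart.

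Yeasts that use xylose, a pentose sugar of plant cell walls, generally reduce it to xylitol, oxidise xylitol to xylulose and phosphorylate the xylulose, which then enters the pentose phosphate pathway. The reductase usually prefers NADPH and the dehydrogenase NAD+, so the balance of these cofactors is a known difficulty of xylose fermentation. The comparison asks how the transcript levels of the fermenting strain differ from those of the wild type when both meet this sugar.

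The 15208 yeast probes of an array stand for 8604 transcripts, known here only by the names of the array's design (design IDs). The files do not pair them with gene names, and none of the 8604 matched an entry of the 6184 genes in the RefSeq table, so transcripts are described as sets and 4 design IDs are named by a fixed rule. A level below is log2 of the background-subtracted signal minus log2 of the array's 75th percentile. A level depends on the probe as well as on the transcript, so levels are compared between arrays only. Of the 8604 design IDs, 7966 had a probe well above background on at least 2 arrays and were tested. No probe was saturated, and 89.3% to 95.2% of probes were well above background on the 5 xylose arrays. The SD over design IDs of the difference between 2 arrays was 0.30 for the TMS174 pair, 0.33 to 0.37 for WT pairs and 0.57 to 0.72 across strains. Differences from TMS174 were smallest for WT xylose replicate 2 (0.57 and 0.58).

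Most transcripts had similar levels in the strains, with a minority shifted strongly. The fitted change lay within 1.5-fold for 82.3% of the tested design IDs and within 2-fold for 92.3%. Calls at an adjusted p under 0.05 (limma, Benjamini-Hochberg over 7966 design IDs, two-sided) numbered 1393 (17.5%), of which 584 were higher in TMS174 (7.33%) and 809 lower (10.2%). Called rises were small, with a median of 1.45-fold, and called falls had a median of 1.81-fold. At a change of at least 2-fold there were 432 calls (5.42%), 104 rises (1.31%) and 328 falls (4.12%). For 2 of these rises and 132 of these falls, 1 strain was above background on none of its xylose arrays. Such design IDs passed the filter through the other arrays. When a probe had to exceed background on all 5 xylose arrays, 101 rises and 172 falls were called at 2-fold. Beyond 16-fold stood 5 rises and 17 falls. The arrays of the strains did not overlap for 59.7% of all tested design IDs (26.3% with TMS174 higher and 33.4% with it lower), so separation of the arrays alone marks no transcript out. How many were higher and how many lower varied with the scaling. Under quantile normalization 710 were higher and 533 lower (154 and 165 at 2-fold), under median scaling 790 and 681, and under normexp background correction followed by quantile normalization (called normexp below) 813 and 578 (69 and 94 at 2-fold). Scaling to spike-in control spots moved the median change of all design IDs to -0.58 on the log2 scale and gave 87 higher and 4202 lower. Of its 2-fold changes, 44 were higher and 1334 lower. With only the fold limit taken relative to that median, the counts were 87 higher and 466 lower. The test itself was still against no change, so the 87, all the calls higher under this scaling, could not be exceeded.

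**Figure D1:**
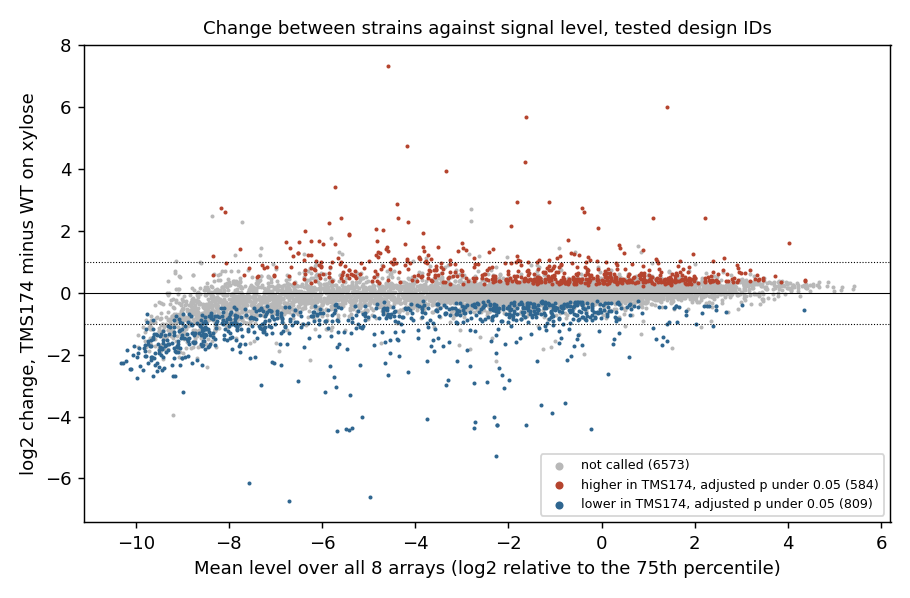
Log2 change of TMS174 minus WT on xylose (vertical) against the mean level over all 8 arrays (horizontal, log2 relative to the 75th percentile), 1 point per tested design ID, with dotted lines at 2-fold. Rises (584) are spread over all levels, and many of the 809 falls sit at the dim end.

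The largest rises that were above background on every xylose array were those of cut01g0021005 and cut01g0020268. Levels of cut01g0021005 were 3.94 and 3.96 on the TMS174 arrays, against -2.81, -1.23 and -2.10 on the WT xylose arrays. On WT glucose arrays it stood at 3.06, 3.25 and 3.09. The transcript was therefore low in WT on xylose alone among the 3 groups. This amounts to 63.7-fold higher in TMS174, a log2 change of 5.99 with an SE of 0.39 (limma adjusted p = 0.00054). Levels of cut01g0020268 were 0.77 and 0.72 on the TMS174 arrays and -5.37, -4.42 and -5.02 on the WT xylose arrays. On WT glucose arrays they were -0.08, 0.29 and 0.13. TMS174 was 51.1-fold higher, a log2 change of 5.68 with an SE of 0.26 (limma adjusted p = 0.00020), and 30.8-fold higher under normexp. The rule that named them required that the groups of arrays did not overlap and that both probes of each were called higher.

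The direct neighbours in number of the named rises did not pass the test. The design IDs numbered 1 below and 1 above cut01g0021005 had log2 changes of -0.31 and -0.27 (limma adjusted p = 0.66 and 0.056). Those beside cut01g0020268 had changes of -0.10 and 0.25 (limma adjusted p = 0.64 and 0.068). Within 3 numbers, 1 of the 6 design IDs around cut01g0021005 was called, with a log2 change of 0.69 (limma adjusted p = 0.0066). Over all tested design IDs 17.5% were called.

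The next rises are described here without names and were picked after their values were seen. The third largest had levels of -1.85 and -1.42 on the TMS174 arrays, -6.22, -6.54 and -6.35 on WT xylose arrays and -3.65, -3.99 and -3.39 on WT glucose arrays. The fourth had levels of 1.21 and 1.04 on the TMS174 arrays, -3.47, -2.70 and -3.15 on WT xylose arrays and -2.02, -1.89 and -2.12 on WT glucose arrays. For both, as for the 2 named rises, the TMS174 arrays were above every WT array of either sugar. Over the 20 largest rises measured on every xylose array the fold ran from 4.04 to 63.7 (limma adjusted p = 0.00013 to 0.042). Their mean levels had a median of -0.60 in TMS174, -4.13 in WT on xylose and -2.32 in WT on glucose.

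The largest falls measured on every xylose array were those of cut01g5570001 and cut01g0030404. Levels of cut01g5570001 were -7.58 and -7.41 on the TMS174 arrays, against 0.15, -1.28 and -1.61 on the WT xylose arrays. On WT glucose arrays they were -7.32, -7.66 and -7.06. WT on xylose was thus the only group with a high signal, and its 3 arrays spread widely. The log2 change was -6.58 (SE 0.49, limma adjusted p = 0.00078), or 96.0-fold lower in TMS174, and 26.2-fold lower under normexp. Levels of cut01g0030404 were -4.16 and -5.01 on the TMS174 arrays and 0.97, 0.45 and 0.70 on the WT xylose arrays. On WT glucose arrays they were -3.23, -5.12 and -2.77, the widest spread of the named transcripts. TMS174 was 39.0-fold lower, a log2 change of -5.29 with an SE of 0.66 (limma adjusted p = 0.0046).

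**Figure D2:**
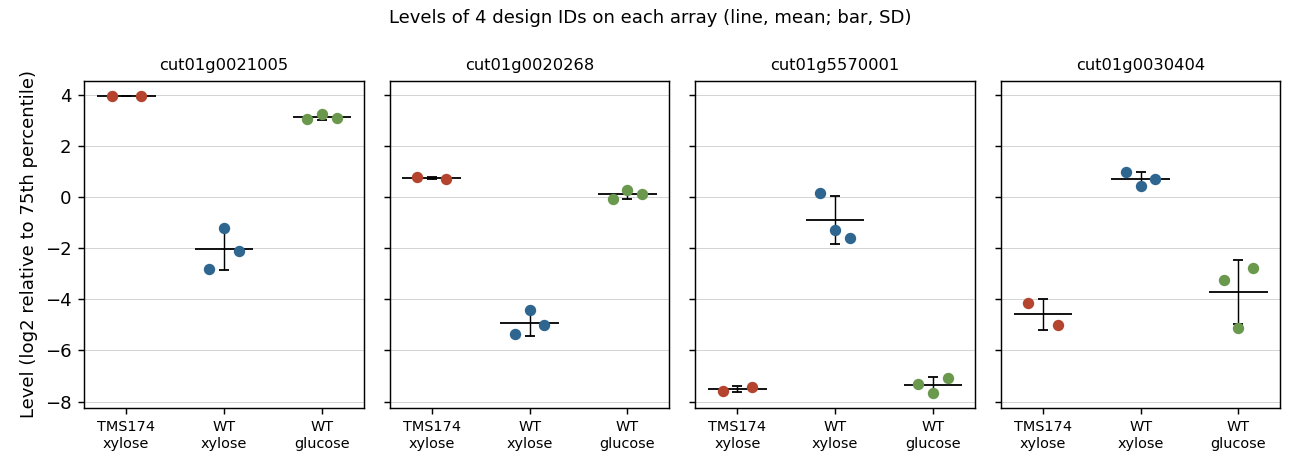
Levels (log2 relative to the array's 75th percentile) of the 4 named design IDs on each array, as points by group, with the mean as a line and the SD as a bar (n = 2 for TMS174 on xylose, n = 3 for each WT group). For all 4 the WT xylose arrays stand apart from the TMS174 and the WT glucose arrays.

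The 5 tested design IDs within 3 numbers of cut01g0030404 were lower in TMS174 too, with log2 changes from -1.20 to -0.50. Of these, 1 was called, at -1.16 (limma adjusted p = 0.010), and the others were not, while 17.5% of all tested design IDs were called. The called one was dim, with mean levels of -8.58 in TMS174 and -7.42 in WT on xylose.

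The 20 largest falls measured on every xylose array ranged from 9.28-fold to 96.0-fold (limma adjusted p = 0.00048 to 0.013). Their mean levels had a median of -4.63 in TMS174, -0.64 in WT on xylose and -6.68 in WT on glucose. The glucose level differed widely among them, from -10.7 to 0.99. The fourth largest fall, for example, had levels of -5.56 and -4.87 on the TMS174 arrays and -0.09, -0.86 and -1.36 on WT xylose arrays, and -10.2, -10.6 and -9.81 on WT glucose arrays. TMS174 was between the WT groups there. The seventeenth had levels of -4.76 and -4.97 on the TMS174 arrays, -0.53, -1.80 and -1.40 on WT xylose arrays and 1.10, 1.43 and 0.43 on WT glucose arrays. In that case TMS174 was below every WT array of either sugar. These examples were picked after their values were seen. Some of these falls had nearly matching levels, within a limit of 0.5 on the log2 scale chosen after the values were seen. Over all 8 arrays this held for 1 pair, the ninth and the tenth, which differed by at most 0.18. Over the 5 xylose arrays alone it held for 5 pairs, among them the fourth with the fifth and with the eighth, which differed by at most 0.16 and 0.18. On the glucose arrays those differed by up to 0.55 and 1.12. Whether the probes share sequence was not tested, so these falls may not all count as separate transcripts.

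Calls that held under several settings formed a smaller set. Of the 2-fold calls, 60 of the 104 rises and 68 of the 328 falls kept an adjusted p under 0.05 under quantile normalization, median scaling, normexp and with each of the 5 xylose arrays left out in turn. With spike-in scaling as well, 52 rises and 68 falls remained. The 60 rises had median levels of -2.07 and -1.99 on the TMS174 arrays, -4.30, -4.31 and -4.28 on the WT xylose arrays and -2.35, -2.46 and -2.31 on the WT glucose arrays. The 68 falls had median levels of -4.25 and -4.39 on the TMS174 arrays, -0.79, -1.39 and -1.51 on the WT xylose arrays and -4.26, -4.54 and -4.25 on the WT glucose arrays. The sets were chosen for a difference from the WT xylose arrays, which any comparison of WT on glucose with WT on xylose also uses, so the 3 groups' levels are a description. The glucose arrays differ from those of TMS174 in strain, sugar, time and slide.

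One block of closely numbered design IDs was higher in TMS174 nearly as a whole. It consists of the design IDs whose first 3 digits after the prefix are 008, and it was singled out after the values were seen, as the block with the highest share of calls higher in TMS174 among the 24 blocks with at least 5 tested members. Block 018 had a slightly higher median change, 0.99 on the log2 scale, with 3 of its 5 tested members called higher and 1 lower. The array holds 26 such design IDs, of which 20 were tested. Of the 20, 16 were called higher in TMS174, against 7.33% called higher over all design IDs. The 4 others had log2 changes of -0.29, -0.25, 0.03 and 0.52. The called rises ran from 1.65-fold to 4.16-fold (limma adjusted p = 0.00024 to 0.045), and 9 were at least 2-fold. The median change over the 20 was 0.96 on the log2 scale, against -0.04 over all tested design IDs.

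The shift in this block was of like size on both TMS174 arrays. Relative to each member's WT xylose mean, the median level was 0.91 and 1.07 higher on the TMS174 arrays. It was 0.01, 0.06 and -0.06 on the single WT xylose arrays, which this reference centres near 0. On the WT glucose arrays it was 1.49, 1.42 and 1.78, the highest of the 3 groups. All but 1 of the tested members rest on a single probe. The count was 17 under quantile normalization, 15 under normexp and 12 with the replicate number in the fit. With WT xylose replicate 1, 2 or 3 left out, it was 11, 14 and 11. It fell to 6, with 2 called lower, under spike-in scaling, where the block's median change was 0.42 and that of all design IDs -0.58. With 1 TMS174 replicate left out, fewer were called. The median change was then that of the other TMS174 array, 1.07 without replicate 1 and 0.91 without replicate 2, so it is no separate check. What these transcripts encode is not given in the files used here.

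**Figure D3:**
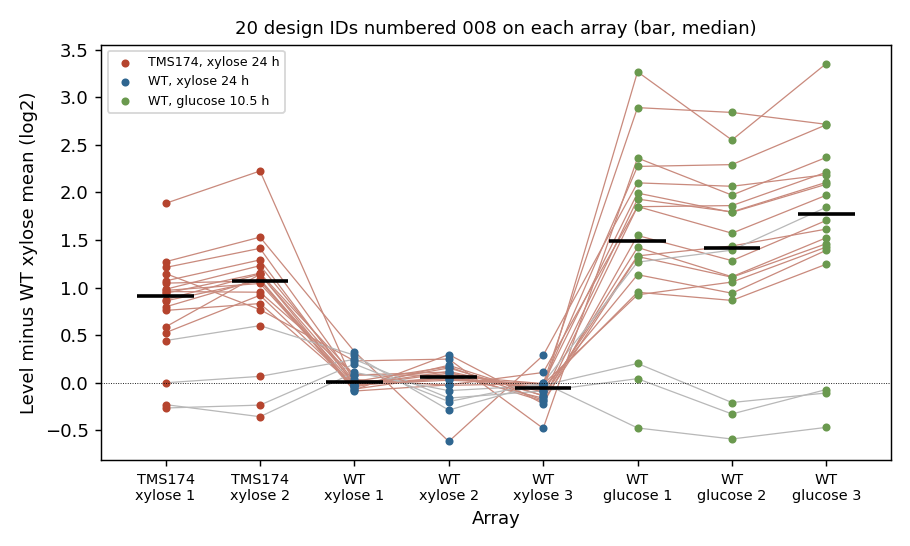
Level of each of the 20 tested design IDs numbered 008 minus its own WT xylose mean (vertical, log2) on each of the 8 arrays (horizontal), with a line per design ID (grey where not called) and a thick bar at the median of each array. The medians were 0.91 and 1.07 on the TMS174 arrays and 1.42 to 1.78 on the WT glucose arrays. Those of the WT xylose arrays, the reference, lie near 0 by construction.

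Changes also fell on neighbouring numbers outside this block. Without its members, 77 rises of at least 2-fold had a tested next number. Of these, 12 (15.6%) were followed by another such rise, against 1.20% of all design IDs outside the block. Of 268 such falls, 43 were followed by another fall, against 4.13%. The longest runs held 3 consecutive numbers, with 1 run of rises outside the block and 6 of falls. In that run of 3 rises, from 2.67-fold to 6.73-fold, the median level was 0.84 in TMS174, -1.91 in WT on xylose and 0.24 in WT on glucose. Of the 6 runs of falls, 2 had every spot above background on the xylose arrays. In one of them, from 4.33-fold to 21.8-fold, the median level was -5.21 in TMS174, -0.77 in WT on xylose and -10.2 in WT on glucose. In the other, from 2.16-fold to 2.84-fold, it was -3.49 in TMS174, -2.38 in WT on xylose and -5.24 in WT on glucose. The run with falls up to 21.8-fold includes the fourth largest fall. On the xylose arrays that fall nearly matched the fifth and the eighth, which are themselves consecutive in number. Sharing of sequence between their probes was not tested, so these falls may not all count as separate transcripts. Whether the numbers follow the order of genes on a chromosome is not stated in the sources used here.

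Design IDs from the small number blocks changed more often than those of the 8 large ones. The blocks 000 to 007 held 7248 of the tested design IDs and 408 smaller blocks held 718. At 2-fold, 32 of the 718 were higher (4.46%) and 48 lower (6.69%), against 72 higher (0.99%) and 280 lower (3.86%) in the large blocks. Of the 32 rises, 9 were the block numbered 008. The small blocks were also dimmer, with 38.0% of their design IDs in the dimmest quintile of all levels, against 18.2% for the large ones. Among design IDs with every spot above background on the xylose arrays, 8.14% of the small-block ones changed at least 2-fold, against 3.02%. The part that brightness plays in this difference was not tested further.

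Falls were concentrated among dim transcripts. When the 7966 design IDs were divided into quintiles by their mean level over all 8 arrays, the dimmest quintile held 217 of the 328 falls and 18 of the 104 rises of at least 2-fold. The second quintile held 59 falls and 46 rises, and the brightest held 9 falls and 14 rises. The median change climbed from -0.48 in the dimmest quintile through -0.07, -0.04 and 0.00 to 0.11 in the brightest. The median standard error was 0.26 in the dimmest quintile and 0.10 in the brightest. Under quantile normalization the dimmest quintile held 62 falls and 53 rises, with a median change of -0.03. Under normexp it held 7 falls and 1 rise, with a median change of -0.01. The surplus of falls among dim transcripts was thus smaller with quantile normalization alone, and normexp was followed by the same normalization, so the part of the background correction was not tested separately.

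**Figure D4:**
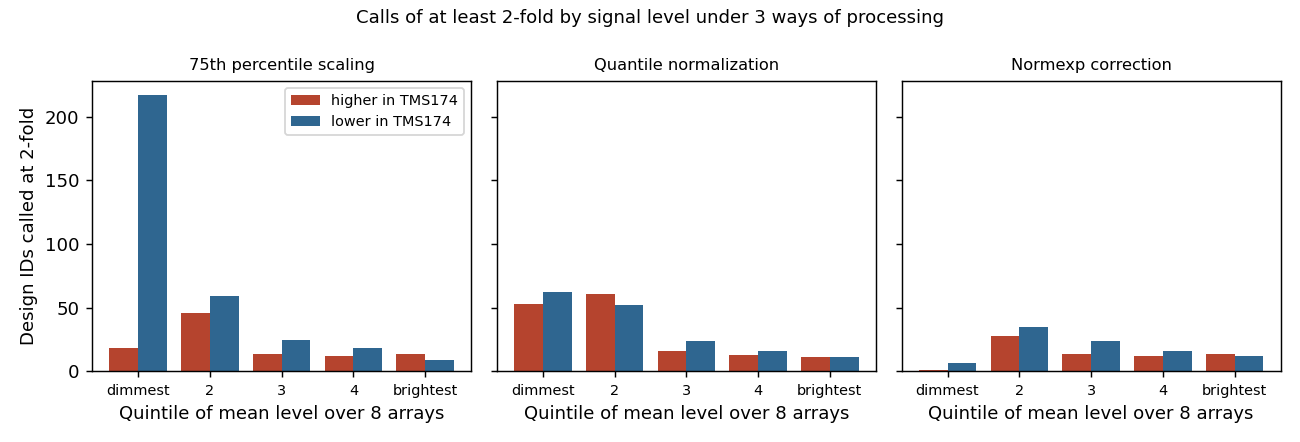
Number of design IDs called with at least a 2-fold change (vertical), higher or lower in TMS174, in quintiles of the mean level over 8 arrays (horizontal), under 3 ways of processing. The 217 falls of the dimmest quintile under 75th-percentile scaling became 62 under quantile normalization and 7 under normexp.

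Of the 2 strains on xylose, transcripts that only WT showed above background were dim. On no TMS174 array but on all 3 WT xylose arrays, 99 design IDs were well above background, and 4 had the opposite pattern. On the WT glucose arrays, 9 of the 99 had every spot above background and 65 had none. Those 65 passed the filter through the WT xylose arrays alone. The share of probes well above background was 90.9%, 91.4% and 95.2% on the WT xylose arrays and 89.6% and 89.3% on the TMS174 arrays. How far the filter and these shares shape the counts of 99 and 4 was not tested. The brightest of the 99 had a WT xylose level of -6.98. The mean of WT set against the detection limit of the TMS174 arrays gave a median of at least 1.91-fold lower in TMS174, and at most a bound of 4.44-fold. With every spot above background in both strains, the 2-fold calls were 96 higher and 153 lower, with medians of 2.49-fold and 2.84-fold.

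The brightest transcripts changed little. Of the 100 design IDs with the highest mean level over all arrays, 99 had a change within 1.5-fold, against 82.3% of all tested design IDs. Called among them were 7 as higher in TMS174, close to the 7.33% over all tested design IDs. As lower, 1 was called, against 10.2% over all. The log2 changes of the 100 ran from -0.57 to 1.60. The median of the 100 was 0.21. Ranking by a mean over all arrays leaves out transcripts bright in 1 strain only, so the small changes are partly set by the choice. For example, cut01g0021005 had a level of 3.95 in TMS174 but a mean of 1.40, below the 3.38 of the lowest member.

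Where a design ID had 2 probes, their changes were mostly of similar size, though often only 1 of them was called. Tested singly, both probes were called in the same direction for 590 of 6218 pairs, in opposite directions for 1, and only 1 probe was called for 554. Of 231 pairs belonging to 2-fold calls, 184 had both probes called the same way and 40 had 1. Those design IDs were called on the average of the same 2 probes, so this agreement is partly built in. The changes of the paired probes differed by a median of 0.07 on the log2 scale over all pairs, by 0.23 in the dimmest quintile and by 0.06 in the brightest.

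The number of calls depended on single arrays. It was 356 without TMS174 replicate 1 and 313 without TMS174 replicate 2. Leaving out WT xylose replicate 1 gave 623 calls, leaving out replicate 2 of that group gave 1155 and leaving out replicate 3 gave 576. At 2-fold the counts were 244, 232, 306, 480 and 277 in the same order. WT xylose replicate 2 was the WT array nearest to the TMS174 mean for 3915 of all 7966 design IDs, for 56 of the 104 rises and for 235 of the 328 falls. WT xylose replicate 1 was the farthest for 46 of those rises and 170 of those falls. The 328 falls had median levels of -8.75 and -8.46 on the TMS174 arrays, against -7.22, -7.49 and -7.13 on the WT xylose arrays. The 104 rises had medians of -2.80 and -2.71 on the TMS174 arrays, against -4.54, -4.38 and -4.63 on the WT xylose arrays. Both sets were chosen for this difference.

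**Figure D5:**
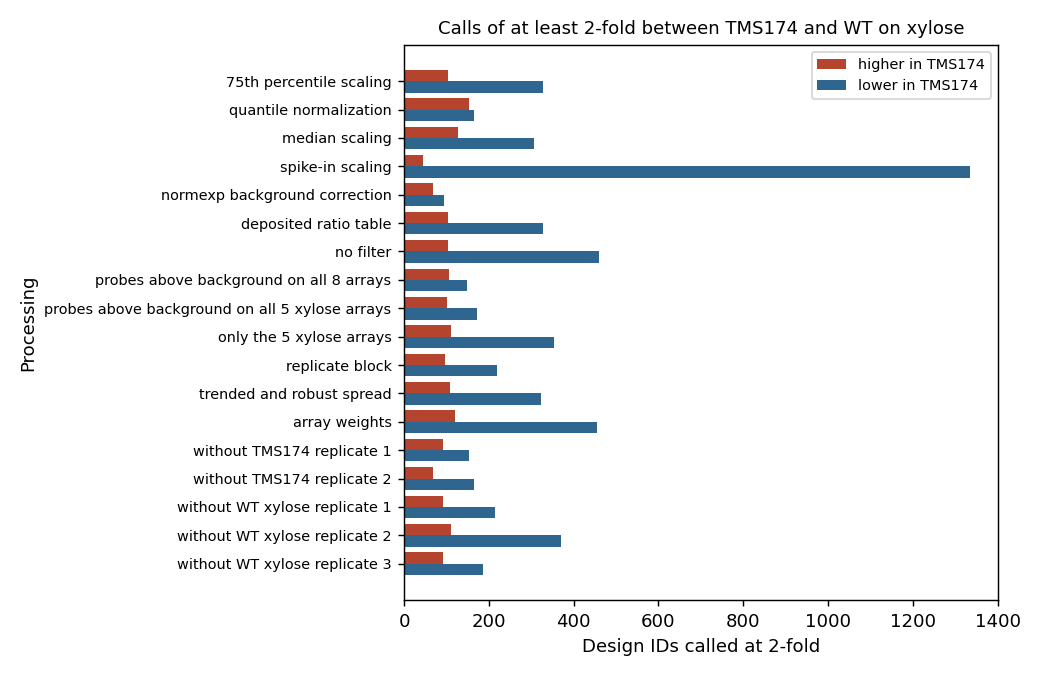
Number of design IDs called with at least a 2-fold change between TMS174 and WT on xylose (horizontal), higher or lower in TMS174, for each way of processing (vertical). Rises numbered 44 to 154 under every setting drawn, while falls ran from 94 under normexp to 1334 under spike-in scaling.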

How the data were processed

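RNA labelled with Cy3 was hybridised to one-colour arrays, and per the file headers their scans went through Agilent Feature Extraction 9.5.3.1. Each deposited scanner file holds a spot's processed intensity, from which the authors' software had subtracted background without scaling between arrays, its median spot and background intensities, and other columns that are flags. A second deposited table holds a ratio, which its values show to be the processed signal over a constant of each array (choice not stated). From the processed intensity, log2 values were computed and the 75th percentile of an array's non-control probes subtracted. Probes well above background on at least 2 of 8 arrays were kept, and averaged within a design ID. A probe with an outlier-flagged spot (22 probes) was left out on all arrays where its design ID had another kept probe. The strains were tested in limma 3.58.1 under R 4.3.3 (group means fitted by lmFit to all 8 arrays, 5 residual degrees of freedom, eBayes, Benjamini-Hochberg at 0.05), after the fit was tested on simulated data. Precision is limited by the few arrays, with a median SE of 0.13 per log2 change. Named design IDs are the 2 largest rises and the 2 largest falls with 2 probes, both called, every spot above background on the 5 xylose arrays and no overlap between the groups. The comparison, this rule and the settings were chosen with earlier results of these data known. P-values rest on the spread between cultures. Alternatives covered scaling, background correction, filters, single probes, the samples fitted, the replicate number as a block, the spread model and each xylose array left out.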

Additional observations from a re-analysis of the deposited data

How the results depend on the processing

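All 4 named design IDs kept their direction under all 18 alternatives. The rule that named them required both probes to be called singly, every spot above background on the xylose arrays and no overlap between the groups. The single-probe and filter alternatives and those with an array left out could therefore not reverse the direction. The fit of the 5 xylose arrays alone and the trended and robust spread left the log2 change as it was. The deposited ratio holds the same signals over a constant of each array. They were also picked for the largest changes. Their log2 changes ranged from 5.45 to 6.40 for cut01g0021005 and from 4.95 to 5.93 for cut01g0020268. For the falls the ranges were -7.13 to -4.71 for cut01g5570001 and -5.83 to -4.71 for cut01g0030404. With both TMS174 arrays in the fit, the highest adjusted p (limma) was 0.0060, 0.0030, 0.0081 and 0.021 in that order. The count of 1393 calls became 4289 under spike-in scaling and 2705 with array weights, and ranged from 313 to 1155 when 1 xylose array was left out. Where a TMS174 array was left out, the lone one was assumed to vary like the other groups. The 432 calls of at least 2-fold became 1378 under spike-in scaling, 163 under normexp, 254 when a probe had to exceed background on all 8 arrays and 273 when it had to on the 5 xylose arrays, and ranged from 232 to 480 when 1 array was left out. Both filters leave out transcripts that fell to background in TMS174; the cause of the other moves was not tested. With the replicate number as a block there were 748 calls, 316 of them at 2-fold. The numbers were not taken as pairs: the labels name nothing shared, and deviations of same-numbered arrays correlated at -0.13 between TMS174 and WT on xylose. Normexp used median spot signals, and spike-in scaling used 6 probe names. The counts for the block numbered 008 under these settings, those of neighbouring numbers without it and the matching levels on xylose arrays were added after seeing the data. Signals near the background limit what can be said of dim transcripts.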
